A study of Mus musculus with 2 samples.

Results

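The miR-26 family was examined in microRNA sequencing libraries from mouse heart. Its 3 genes, Mir26a-1, Mir26a-2 and Mir26b, were taken by their GENCODE M21 symbols from the 2202 miRNA genes in the deposited tables, and all 3 passed the minimum of 10 counts over both libraries that 441 genes passed. The hearts came from male B6CASTF1/J mice, the first-generation cross of C57BL/6J and CAST/EiJ, at 4 days of age. No treatment or engineered allele is named in the labels, there is a single group of 2 libraries (biological replicates 1 and 2), and no comparison of conditions was possible. The labels number the animals separately but give both the same donor identifier. If the libraries came from 1 animal, the spread between them is technical.

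A microRNA is cut from a hairpin whose stem gives a 5p and a 3p arm of mature RNA. The loaded arm guides Argonaute to messenger RNAs through its seed, bases 2 to 8, and lowers their output. The miR-26 genes lie in introns of the genes for small C-terminal domain phosphatases, which remove phosphates from the tail of RNA polymerase II and restrain neuronal genes together with REST. Known targets of miR-26 include Ezh2, the histone H3 lysine methyltransferase of Polycomb, and G1 regulators such as Cdk6 and cyclin E. In heart and vessels miR-26a is known for its action on Smad1 signalling in endothelial cells.

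The mature arms are shown because the family's shared seed and the identity of one arm decide which reads can be assigned to a gene. RefSeq sequences of the GRCm38.p6 build (mm10) were found for 3 of 3 genes, and capitals mark the seed.
miR-26a-5p from Mir26a-1 and from Mir26a-2: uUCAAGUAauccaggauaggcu
miR-26b-5p: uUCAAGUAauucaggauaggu
miR-26a-1-3p: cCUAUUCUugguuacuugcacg
miR-26a-2-3p: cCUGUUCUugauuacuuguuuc
miR-26b-3p: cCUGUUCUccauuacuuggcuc

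All 5p arms carried the seed UCAAGUA, and in the RefSeq table only miR-26a-5p and miR-26b-5p had it. With positions counted from 1 at the 5′ end and the miR-26a base given first, miR-26b-5p differed from miR-26a-5p by C11U and C21U over 21 compared bases, both outside the seed. The 3p arms differed more. From miR-26a-1-3p to miR-26a-2-3p there were 6 substitutions in 22 bases, of which A4G lay in the seed. The 3p arms of Mir26a-2 and Mir26b shared the seed CUGUUCU and differed at 4 positions. Outside the family the RefSeq table gave this seed to miR-6932-3p and miR-7039-3p, whose genes held 0 and 1 counts and 1 and 0 counts in replicates 1 and 2.

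The hairpins show how far the sequence around the arms is particular to each locus, and capitals mark the mature arms.
Mir26a-1: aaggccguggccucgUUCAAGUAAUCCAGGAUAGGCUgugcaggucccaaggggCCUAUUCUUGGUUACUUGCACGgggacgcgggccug
Mir26a-2: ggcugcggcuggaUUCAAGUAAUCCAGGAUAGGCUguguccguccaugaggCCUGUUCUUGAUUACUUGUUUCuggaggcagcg
Mir26b: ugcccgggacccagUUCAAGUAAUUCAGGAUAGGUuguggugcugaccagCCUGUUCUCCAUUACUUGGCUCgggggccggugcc

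The longest stretch common to Mir26a-1 and Mir26a-2 was 25 bases long. It consists of the 22 bases of miR-26a-5p, in capitals, and the 3 bases after it.
Shared by Mir26a-1 and Mir26a-2: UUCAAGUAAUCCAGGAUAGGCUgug
Mir26b shared at most 11 bases with Mir26a-1 and 10 with Mir26a-2. Among windows of 22 bases, 4 of the 69 in Mir26a-1 and 4 of the 63 in Mir26a-2 occurred in another miRNA hairpin of GENCODE M21, and in each case that hairpin was the other miR-26a gene. All 64 windows of Mir26b were its own. A read that lies wholly inside the 25 shared bases has no single place of origin, whereas a read of any 3p arm or of miR-26b-5p has one among the annotated hairpins. Reads placed at several sites are not in the gene counts. The counts of Mir26a-1 and Mir26a-2 are therefore lower limits for miR-26a and uncertain as levels of it. The tables do not split a hairpin's count by arm.

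**Figure D1:**
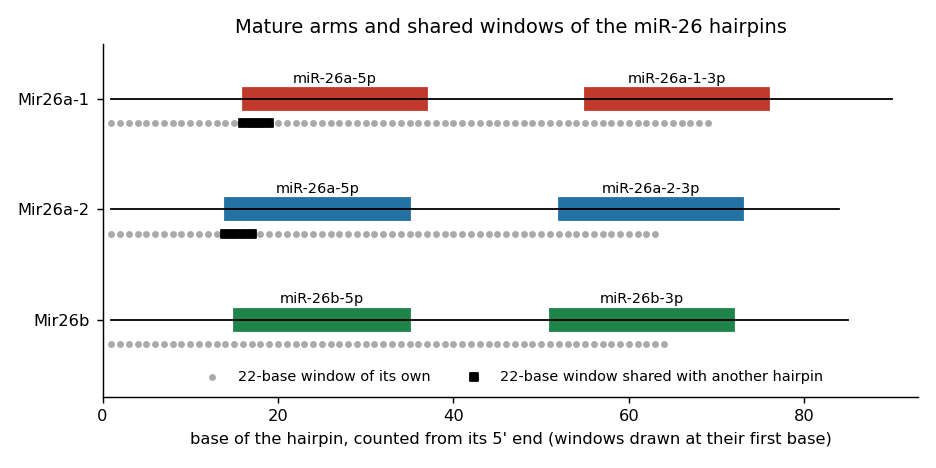
Each hairpin is drawn from its 5′ end (x axis, bases) with its mature arms as boxes; marks below it stand at the first base of every 22-base window and are black squares where the window occurs in another miRNA hairpin. The 4 shared windows of Mir26a-1 and of Mir26a-2 all start in or at the 5′ end of miR-26a-5p, and Mir26b has 0.

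The loci were alike in their direction relative to the host but differed in the lengths of introns and flanks. Mir26a-1 (chr9:119031796-119031885, mm10, plus strand) lies in intron 5 of the principal transcript of Ctdspl, which has 8 exons. Its flanks measure 1543 and 1650 bases. Mir26a-2 (chr10:126995530-126995613, plus strand) lies in intron 5 of Ctdsp2, also with 8 exons, between flanks of 1621 and 241 bases. Mir26b (chr1:74394310-74394394, plus strand) lies in intron 4 of Ctdsp1, with 7 exons, between flanks of 234 and 245 bases. Each hairpin is transcribed in the direction of its host. The introns measure 3283, 1946 and 564 bases for Mir26a-1, Mir26a-2 and Mir26b. Within 10 kb there was no other annotated miRNA gene beside Mir26a-1 or Mir26b, and 1 beside Mir26a-2, Mir546, 2826 bases downstream with 2 and 0 counts. Predicted folds of the hairpins had minimum free energies of -49.4, -44.5 and -43.5 kcal/mol for Mir26a-1, Mir26a-2 and Mir26b, with 20, 19 and 18 bases of the 5p arm paired. Host messenger RNA was not measured.

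Sense counts, those on the gene's own strand, came to 4196577 in replicate 1 and 3801738 in replicate 2. Multi-mapped reads numbered 3657699 and 3929811, which was 38.1% and 42.3% of all reads in the tables. Levels are in CPM (counts scaled to the total of sense counts). A gene whose reads all have a single place, and which has 0 counts, could still hold up to 0.715 or 0.789 CPM, the level of 3 counts. For a gene that shares its mature arm with another, a count of 0 sets no such limit. Of the 7 heart muscle markers, the 3 with no 22-base window in another hairpin had the most counts, with Mir499 at 5794 and 4633 CPM, Mir208b at 5169 and 2965 CPM and Mir208a at 2091 and 1259 CPM. The other 4 share such windows and had few, with 10 and 13 for Mir1a-1, 139 and 207 for Mir1a-2, 11 and 29 for Mir133a-1, and 7 and 5 for Mir133a-2 in replicates 1 and 2. The neuronal Mir124a-1, Mir124a-2 and Mir124a-3 share windows with each other, so their 0 counts in both libraries do not show low levels. PCR copies are not independent molecules, so all intervals and this limit speak of counting error alone.

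Mir26b was the family member with nearly all of the assigned reads. It had 93975 counts in replicate 1 and 120792 in replicate 2, which is 22393 CPM (95% Wilson interval 22252 to 22535) and 31773 CPM (31597 to 31950). It ranked 11 and 9 among the 2202 genes by assigned reads. Multi-mapped reads, 38.1% and 42.3% of all reads, count toward no gene. Genes that share an arm with another can therefore rank too low beside Mir26b, which shares no window. Mir26a-2 had 302 and 222 counts, or 72.0 CPM (64.3 to 80.5) and 58.4 CPM (51.2 to 66.6), at ranks 191 and 190. Its level was close in both libraries. The intervals overlapped, but the interval of the fold of replicate 1 over replicate 2, 1.03 to 1.47, did not include equal levels.

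Mir26a-1 had 32 counts in replicate 1 and 318 in replicate 2. In CPM these were 7.63 (5.40 to 10.8) and 83.6 (74.9 to 93.4), so the gene moved from rank 298 to rank 173. Its libraries did not overlap, and the lower one rested on few reads. Over both libraries the means were 27083 ± 6632 CPM for Mir26b, 65.2 ± 9.59 CPM for Mir26a-2 and 45.6 ± 53.8 CPM for Mir26a-1 (SD, n = 2). For Mir26a-1 the SD was larger than the mean.

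**Figure D2:**
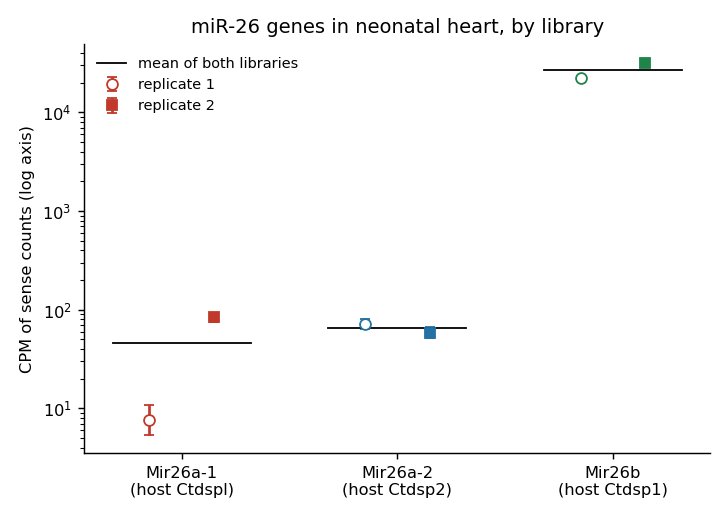
CPM of sense counts (y axis, log scale) for each miR-26 gene; open circles are replicate 1, filled squares replicate 2, bars 95% Wilson intervals and lines the mean of both libraries. Mir26b lies at 22393 and 31773 CPM, Mir26a-2 at 72.0 and 58.4 CPM, and Mir26a-1 at 7.63 and 83.6 CPM.

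All counts of the 3 genes were on the gene's strand, with 0 antisense counts in either library, and the counts made without regard to strand were the same numbers. The family as a whole held 2.25% and 3.19% of sense counts, a total that leaves out multi-mapped reads. Mir26b made up 99.6% of the family's counts in both libraries. The miR-26a genes together had 334 and 540 counts, 0.354% (95% Wilson interval 0.318 to 0.394) and 0.445% (0.409 to 0.484) of the family. As lower limits these shares do not rank miR-26a against miR-26b in the tissue.

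Within a library, Mir26b had 2937 times the counts of Mir26a-1 in replicate 1 (exact 95% interval 2080 to 4294) and 380 times in replicate 2 (340 to 425). Per base of hairpin these folds were 3109 and 402, since the hairpins are 85 and 90 bases long. Over Mir26a-2, with a hairpin of 84 bases, the count folds were 311 (278 to 350) and 544 (477 to 624), and the folds per base 308 and 538. The log2 count fold of Mir26b was 10.04 ± 2.09 over Mir26a-1 and 8.68 ± 0.57 over Mir26a-2 (SD, n = 2), larger than the spread between the libraries in each case. Since the counts of the miR-26a genes are lower limits, these folds describe assigned counts and not levels of the mature RNAs in the tissue.

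The order of the miR-26a genes was not the same in both libraries. Mir26a-2 had 9.44 times the counts of Mir26a-1 in replicate 1 (exact 95% interval 6.54 to 14.0). In replicate 2, Mir26a-1 had 1.43 times the counts of Mir26a-2 (1.20 to 1.71). Per base of hairpin the folds were 10.1 and 1.34 in the same directions. Mir26a-1 thus held 9.58% (95% Wilson interval 6.87 to 13.2) of the counts of the miR-26a genes in replicate 1 and 58.9% (54.7 to 63.0) in replicate 2. The log2 fold of Mir26a-2 over Mir26a-1 was 1.36 ± 2.66 (SD, n = 2), so these neighbours in the order of levels do not differ beyond their spread.

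Between the libraries, Mir26a-1 showed one of the widest gaps of all tested genes, Mir26b a moderate gap in the same direction, and Mir26a-2 little. The CPM of Mir26a-1 was 11.0-fold higher in replicate 2 (exact 95% interval 7.61 to 16.3) and that of Mir26b 1.42-fold higher (1.41 to 1.43). That of Mir26a-2 was 1.23-fold higher in replicate 1 (1.03 to 1.47) when scaled by total counts, and its direction turned with TMM scaling (trimmed mean of M-values). On the scale of log2(CPM + 1), replicate 2 over replicate 1, the ratios were 3.29 for Mir26a-1, 0.50 for Mir26b and -0.30 for Mir26a-2.

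By Fisher's exact test of a gene's counts against the rest of the library (two-sided, Benjamini-Hochberg adjustment over 441 genes, threshold 0.05), 3 of 3 miR-26 genes differed, beside 56.9% of all tested genes. This test compares 2 libraries, not conditions, and takes counting error as the only error. The adjusted p was 4.5e-66 for Mir26a-1 and 0.034 for Mir26a-2 in Fisher's exact test, and too small for the software to represent for Mir26b. Calls toward replicate 2 were made for 20.4% of tested genes and toward replicate 1 for 36.5%, that is 90 and 161 genes. With TMM scaling the split was 135 and 106, so the direction of the excess depends on the scale.

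A test with spread beyond counting error gave fewer calls. In edgeR's exact test with a common dispersion, Mir26a-1 was 1 of 2 genes called, beside Mir9-3, with an adjusted p of 0.0073. With a dispersion for each gene edgeR's exact test called 0 genes at an adjusted p under 0.05 and 17 at an unadjusted p under 0.05. There the unadjusted p of Mir26a-1 was 0.0052 and the adjusted p 1. The dispersions come from the same 2 libraries that are compared. Mir26b was called by neither version, with unadjusted p of 0.30 and 0.33 in edgeR's exact test.

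Over all 441 tested genes the log2 ratios had a median of -0.26, and TMM scaling raises each ratio by 0.30 before the pseudocount. Relative to that median, Mir26a-1 stood 3.56 higher, Mir26b 0.77 higher and Mir26a-2 at -0.04. Mir26a-1 ranked 2 among the 441 log2 ratios, after Mir9-3 with 1 and 82 counts. Mir26b ranked 58 and Mir26a-2 229.

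**Figure D3:**
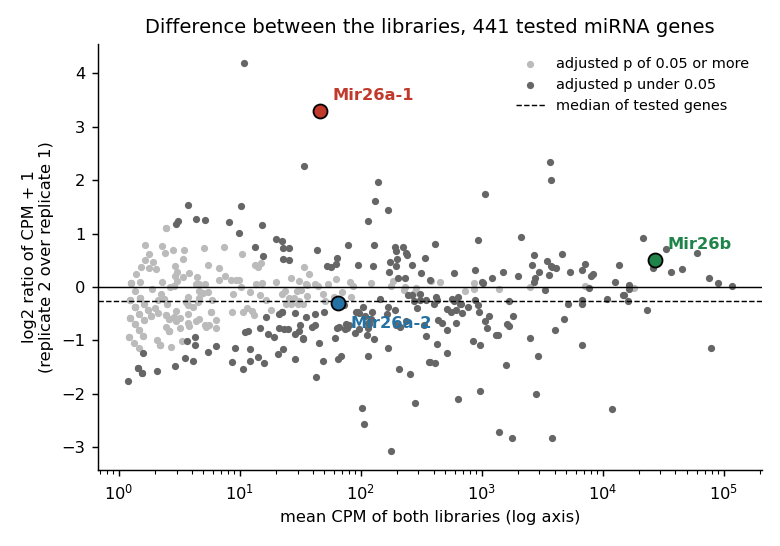
Log2 ratio of CPM + 1, replicate 2 over replicate 1 (y axis), against the mean CPM (x axis, log scale) for 441 tested genes; dark points have an adjusted p under 0.05 in Fisher's exact test and the dashed line is the median of -0.26. Mir26a-1 stands apart at 3.29, Mir26b lies at 0.50, and Mir26a-2 lies at the median, below 0 here and at 0 with TMM scaling.

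Genes of like counts show the range of ratios at a member's depth. Among 73 other genes with a mean count within a factor of 2 of the 175 of Mir26a-1, log2 ratios ran from -1.68 to 2.27. That Mir26a-1 lies above this range follows from its rank among all tested genes. Around Mir26a-2, with a mean count of 262, 30 of 68 genes had a higher ratio and 38 a lower one. Around Mir26b, 2 of 13 genes had a higher ratio and 11 a lower one, within a range of -0.43 to 0.92. The share called by Fisher's exact test was 58.9% of the genes around Mir26a-1, 72.1% around Mir26a-2 and 92.3% around Mir26b, so it was highest for the gene with the most reads.

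Genes most like each member were taken by the distance between their log2(CPM + 1) values over the 2 libraries. Nearest to Mir26b were Mir322 (distance 0.12), Mir335 (0.42) and Mir99a (0.62), with Mir322 at 22954 and 29358 CPM. Nearest to Mir26a-2 were Mir138-2 (0.11), Mir199b (0.17) and Mir374b (0.21), with Mir138-2 at 67.0 and 56.3 CPM. Mir138-2 and Mir199b each have a mature arm identical to that of another gene, so their counts are lower limits too. Mir26a-1 had no close neighbour. Mir669e, at 11.0 and 56.6 CPM, was nearest at a distance of 0.73, followed by Mir212 (1.77) and Mir547 (1.80). Distances over 2 libraries say little beyond level and ratio.

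Loci that share a mature arm give a frame for the gap between the miR-26a genes. Outside the family, 90 of the 1018 miRNA genes with a mature arm in the RefSeq table had an arm identical to that of another gene. Of these, 45 were tested, and 10 were higher and 16 lower in replicate 2, near the 20.4% and 36.5% over all tested genes. Their median log2 ratio was -0.23, beside -0.26 over all tested genes. Together the 90 genes held 1.30% of sense counts in each library, and 3 of the 90 averaged over 1000 CPM. Mirlet7f-2 led them with 3326 and 3864 CPM, a let-7 gene, then Mir181b-2 with 2663 and 3242 CPM. Among the 925 genes with no such arm 63 averaged over 1000 CPM. The tested genes of each kind had similar medians of mean CPM, 31.2 for those with an identical arm elsewhere and 35.9 for those without. These medians leave out genes under 10 counts. Of the 90 genes 36 had 0 counts in both libraries, and of the 925 genes 350. Among the 55 of the 90 with another arm of their own, like the miR-26a genes, 9 had 0 counts in both libraries.

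Among 22 pairs of tested loci with an identical arm, Mir26a-1 and Mir26a-2 had the widest gap in log2 ratio, 3.59. The other 21 pairs had a median gap of 0.30 and a highest of 1.83, for Mir24-1 and Mir24-2. Those genes had 215 and 285 counts and 685 and 252 counts in replicates 1 and 2. They were the only other pair whose order of counts changed between the libraries. With pairs limited to those with a mean count of at least 100 for each gene, 11 others remained and their median gap was also 0.30. Scaling the libraries moves both copies of a pair nearly alike and leaves their gap. They are a description, since the ratio of Mir26a-1 was known when the family was chosen.

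**Figure D4:**
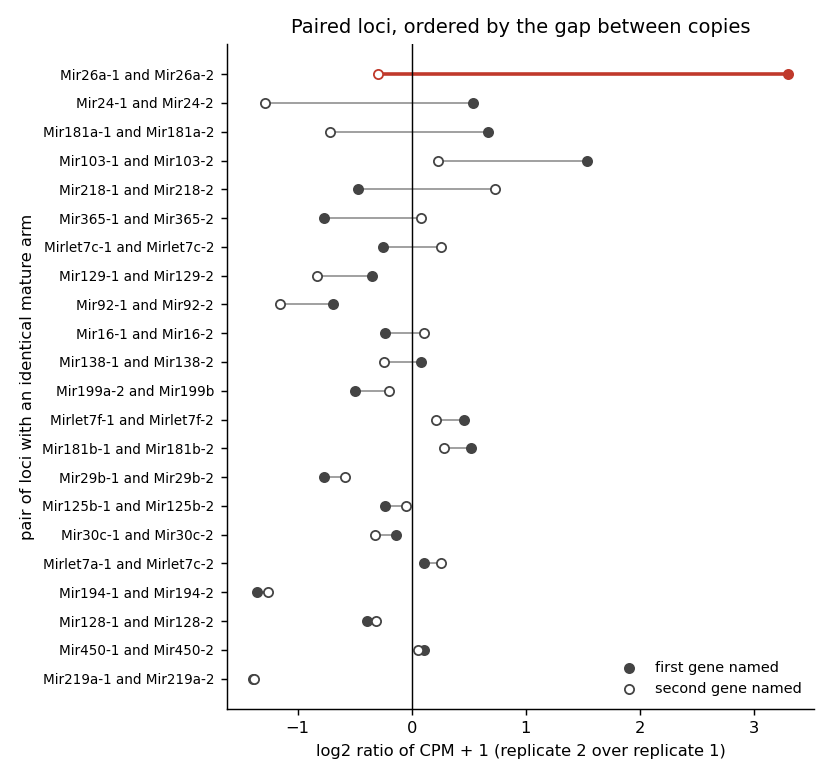
For 22 pairs of miRNA genes with an identical mature arm (rows), the log2 ratio of CPM + 1, replicate 2 over replicate 1 (x axis), of the first gene named (filled) and the second (open), joined by a line and ordered by the length of the gap. The top row, Mir26a-1 at 3.29 and Mir26a-2 at -0.30, has the longest line, and TMM scaling would move both genes by about 0.30, Mir26a-2 to 0.0029.

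Other miRNAs that act on the targets named above were described from lists. Of 9 miRNA genes other than miR-26 that are known to act on Ezh2, 5 were tested, and Fisher's exact test called 0 toward replicate 2 and 2 toward replicate 1, beside 20.4% and 36.5% of all tested genes, with a median log2 ratio of -0.25. The lower ones were Mir214, at 6683 and 941 CPM, and Mir101b, at 222 and 163 CPM. Mir138-1 had 79.4 and 84.2 CPM, a lower limit because it shares a mature arm with Mir138-2. Of the 25 listed genes in the tables that restrain G1 cyclins and their kinases (the let-7, miR-15/16 and miR-34 families), 23 were tested. In replicate 2, 8 were higher and 11 lower, beside 20.4% and 36.5% of all tested genes, with a median log2 ratio of -0.04. Their most abundant members were Mirlet7i, at 88255 and 92532 CPM, Mirlet7g, at 71157 and 80315 CPM, and Mir322. Mir26b thus had CPM of the order of Mir322 and under those of the leading let-7 genes in both libraries.

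Several markers of cell types also differed between the libraries. For endothelium the list held 1 gene, Mir126a, with 10.9% and 4.93% of counts in replicates 1 and 2. Mir221 and Mir222, also grouped with endothelial miRNAs, did not follow it, at 275 and 399 CPM and at 43.8 and 44.5 CPM. The smooth muscle genes Mir143 and Mir145a together held 4.86% and 7.95%. The 7 heart muscle genes held 1.31% and 0.892%, and 2 of them were higher and 3 lower in replicate 2, beside 20.4% and 36.5% of all tested genes. Their Mir1a and Mir133a genes share windows with other hairpins, so these shares are lower limits and cannot be ranked against those of other cell types. The 2 higher genes, Mir1a-2 and Mir133a-1, are among those that share windows. The red blood cell genes (3) summed to 493 and 400 CPM, but they did not move together. Mir451a stayed level, at 234 CPM in both libraries. Mir486 fell from 142 CPM in replicate 1 to 103 CPM in replicate 2, and Mir144 from 117 to 63.7 CPM. The white blood cell genes (3) summed to 523 and 735 CPM, and the liver gene Mir122 had 309 and 105 CPM. Of 6 neuronal genes, all of which share windows with other hairpins, 4 had 0 counts in both libraries, and the sum was 0.238 and 22.1 CPM, nearly all from Mir9-3. The part of these shifts in the differences of the miR-26 genes was not tested, and in a bulk tissue fewer cells of a type and less RNA per cell cannot be told apart.

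The log2 ratios of the miR-26 genes had the same order under other counting and scaling choices. A change of total moves all ratios nearly alike, and the strand choice left these genes' counts unchanged, so it too acted through the total. The kept order is therefore no test of the result. For Mir26a-1 the log2 ratio ran from 2.41, with a pseudocount of 10 CPM, to 3.58, with TMM scaling. For Mir26b it ran from 0.39 to 0.81. For Mir26a-2 it ran from -0.41, with counts taken without regard to strand, to 0.0029 with TMM scaling, where the adjusted p was 1 in Fisher's exact test.

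**Figure D5:**
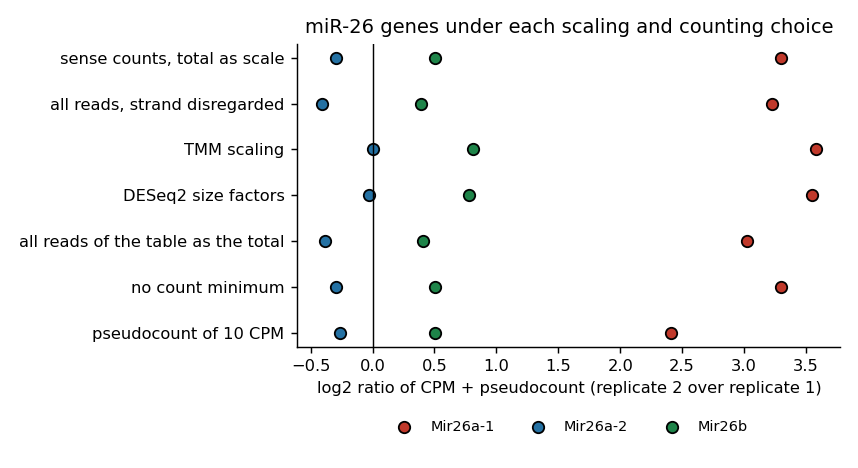
Log2 ratio of CPM plus the pseudocount, replicate 2 over replicate 1 (x axis), of the 3 miR-26 genes under 7 counting and scaling choices (rows). Mir26a-1 stays at or above 2.41 and Mir26b at or above 0.39, while Mir26a-2 lies between -0.41 and 0.0029 and crosses 0 with TMM scaling.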

How the data were processed

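MicroRNA sequencing gave 2 heart libraries, which form a single group. The authors deposited raw read counts per miRNA gene, not normalized, for mm10 and GENCODE M21, per the file headers of the accompanying description files. No aligner is named: it is not given in the sources used here. Whether CAST reads that mismatch mm10 were lost was not tested. Sense counts were used, and the lines that name no gene (unmapped, multi-mapped and unassigned reads), 56.2% and 59.1% of the reads, were left out. CPM, log2(CPM + 1), Wilson and exact binomial intervals and Fisher's exact test were computed in Python 3.11.15 with scipy 1.17.1. Scaling and exact tests used edgeR 4.0.16 and DESeq2 1.42.0. The edgeR common dispersion came from 344 genes, and its quasi-likelihood test could not be run with no residual degrees of freedom. Fisher's exact test was tested on simulated counts with counting error as the only error, so spread beyond it was not covered. All 2202 gene IDs matched GENCODE M21. Folds were predicted with ViennaRNA 2.7.2. Named genes were the 3 family members, the 3 nearest genes to each, and up to 3 genes of highest mean CPM per list. Genes named outside this rule were chosen after their values were seen. They were Mir9-3, Mir24-1, Mir24-2, Mir221, Mir222, Mir546, the Mir6932 and Mir7039 arms, and the Mir124a, Mir1a and Mir133a genes. The members and lists were chosen with earlier results of these data known.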

Additional observations from a re-analysis of the deposited data

How the results depend on the processing

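Only 2 libraries exist, so a difference between them has no replicate check. No paired analysis was possible because there is a single group. The 251 genes called by Fisher's exact test became 2 with edgeR's exact test at a common dispersion and 0 with a dispersion per gene, a version added after seeing the data; these tests add spread beyond counting error. The call of Mir26a-1 was lost with the dispersion per gene (log2 ratio 3.75) and that of Mir26b in both edgeR versions (0.81 in each). For Mir26a-2 the direction turned with TMM scaling (0.0029) and in both edgeR versions (0.0030 in each). Its call was lost with DESeq2 size factors (-0.027) and without a count minimum (-0.30, adjusted p 0.17 in Fisher's exact test), where 2202 genes were adjusted over in place of 441. Mean levels moved with the total used. Counts taken without regard to strand had lower totals than sense counts, 3099807 and 3035432 in replicates 1 and 2, and several abundant genes had 0 counts there. With these counts Mir26a-2 averaged 85.3 CPM and Mir26b 35055 CPM, and with all reads as the total 27.7 and 11398 CPM. Mir26a-1, with its wider spread, averaged 57.5 and 18.8 CPM under these choices, against 45.6 CPM. Leaving out a library gave log2 folds from -0.52 to 3.24 for Mir26a-2 over Mir26a-1, so its direction turned without replicate 1. The folds of Mir26b ran from 8.57 to 11.52 over Mir26a-1 and from 8.28 to 9.09 over Mir26a-2. Mean levels ran from 7.63 to 83.6 CPM for Mir26a-1, from 58.4 to 72.0 CPM for Mir26a-2 and from 22393 to 31773 CPM for Mir26b. Of 52 values computed under alternatives, leaving out a library included, 37 kept their direction and call or moved by less than the spread. Of the rest, 6 moved by more, 5 lost their call and 4 turned in direction. With 2 libraries, leaving out a library always moves a mean by less than the SD, so such values could not count as moved. The folds taken without regard to strand rest on the same counts and could not change. The 37 are therefore no measure of stability. The value of Mir26a-1 in replicate 1 rests on 32 counts.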
